A study of Mus musculus with 6 samples.

Results

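The ABCA subfamily of ATP-binding cassette transporters was examined in mouse lateral ventricular choroid plexus at embryonic day 15 (E15) and in the adult. These are large membrane proteins that use ATP to move phospholipids, sterols and retinoids across or between membranes, and several are best known from 1 tissue each, such as the retina, the lung or myelin. The choroid plexus is a vascularised tissue whose epithelium secretes cerebrospinal fluid and carries lipid-binding proteins into it. A gene was taken as a member when its symbol stood, as a whole entry, in the gene symbol field of a transcript cluster. On this array a gene is read by many exon probe sets, which are grouped into a transcript cluster. Of the 3956 transcript clusters in the deposited tables, 8 carried an ABCA symbol, and all 8 carried that symbol alone. RefSeq lists 16 protein-coding mouse genes of the subfamily, and the remaining 8 (Abca6, Abca8a, Abca9, Abca12, Abca14, Abca15, Abca16 and Abca17) had no entry in either table.

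Both groups were healthy Swiss Webster mice, and whole lateral ventricular choroid plexus was excised and pooled. The E15 group consisted of 3 pools of unsexed embryos, with 30 embryos in each according to the labels. The adult group consisted of 3 pools of females, with 10 animals in each, so age and sex cannot be told apart. Another description of the same arrays by the authors gives different pool sizes. RNA of each pool was amplified and hybridised to 1 Affymetrix mouse exon array. For every cluster the authors merged the 3 arrays of each age into 1 log2 value, and no column holds a single array. No replicate error or test can therefore be given for any value below. Each cluster was centred near 0, which leaves the difference between the ages but removes the level of expression. Differences are given on the log2 scale as adult minus E15, so that 1 stands for a fold of 2 in favour of the adult. In RNA from whole tissue, fewer cells of a type and less RNA per cell cannot be told apart.

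All 8 ABCA transporters had the higher value in the adult plexus. The difference was at least 2-fold for Abca4, Abca7, Abca2 and Abca5, and smaller for Abca3, Abca8b, Abca13 and Abca1. By comparison, 45.9% of all clusters had the higher value in the adult, and 22.9% were at least 2-fold higher there. No ABCA transporter was at least 2-fold higher at E15, as 24.4% of all clusters were. The median difference of the 8 genes was 1.15, a fold of 2.22, against -0.16 over all clusters of the tables. At least 1.5-fold, 5 of the 8 genes were higher in adult (31.5% of all clusters), and at least 3-fold, 3 of the 8 (8.87%). The tables list only clusters that passed the authors' thresholds for expression or for the splicing index, so these shares are not shares of all genes on the array.

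**Figure D1:**
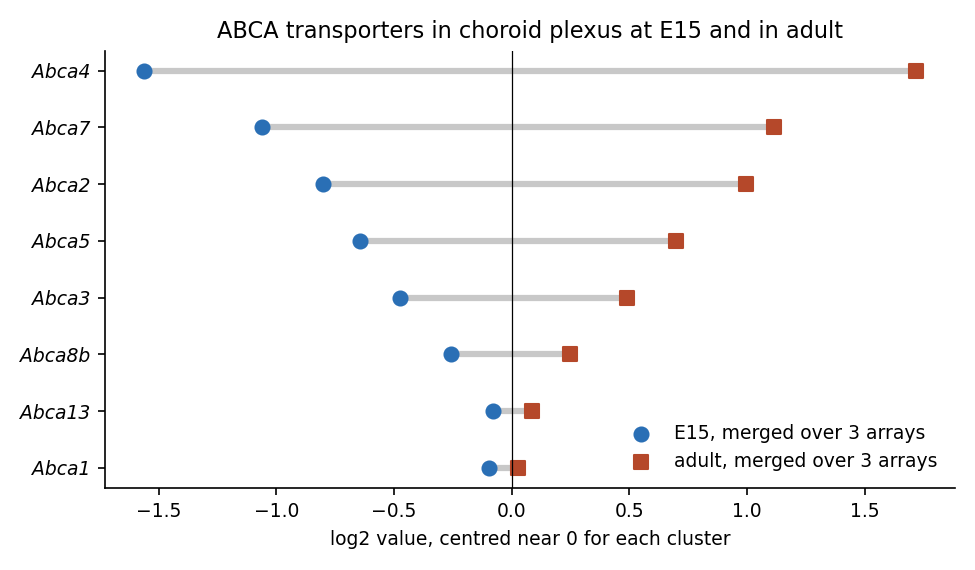
Log2 values of the 8 ABCA transporters (horizontal axis, centred near 0 for each cluster) at E15 (blue circles) and in adult (red squares), each merged over 3 arrays and without an error. The grey line joining them is the difference, which runs from 0.12 for Abca1 to 3.28 for Abca4, with the adult value on the right in all 8 genes.

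The retinal member of the subfamily had the widest separation. Abca4, which clears retinoid adducts from the discs of photoreceptors, had a value of 1.72 in adult and of -1.56 at E15 (cluster 6900982). Its difference of 3.28, a fold of 9.72, was the 30th highest of all 3956 clusters. It lay 1.11 above the next ABCA transporter, the widest gap between neighbours in the order of the 8 genes.

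Abca7 followed, a close relative of Abca1 that is linked to phospholipid export and to phagocytosis. Its value was 1.12 in adult and -1.06 at E15 (cluster 6769180). The difference of 2.18, a fold of 4.52, ranked 157th among all clusters.

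A pair of transporters of the endosomal and lysosomal membrane came next. Abca2, which is abundant in myelin-forming cells and handles sterols and sphingolipids, had a value of 1.00 in adult and of -0.80 at E15 (cluster 6875722). Its difference was 1.80, a fold of 3.48, and lay 0.38 below that of Abca7. Abca5, placed by the ontology field of the table in lysosome, endosome and Golgi apparatus, had a value of 0.70 in adult and of -0.64 at E15 (cluster 6792129). Its difference of 1.34 was a fold of 2.53. With no spread between arrays, it was not tested whether neighbours in this order differ.

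Abca3 lay just below 2-fold. It loads surfactant phospholipid into the lamellar bodies of the lung, and its value was 0.49 in adult and -0.47 at E15 (cluster 6849285). The difference was 0.97, a fold of 1.95. Abca8b had a value of 0.25 in adult and of -0.26 at E15 (cluster 6792113), a difference of 0.51 and a fold of 1.42.

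The smallest differences belonged to Abca13 and Abca1. Abca13, the largest protein of the subfamily, had a value of 0.08 in adult and of -0.08 at E15 (cluster 6778722), a difference of 0.16. Abca1, the exporter that passes cholesterol and phospholipid to lipid-poor apolipoproteins, had a value of 0.03 in adult and of -0.10 at E15 (cluster 6921670). Its difference of 0.12, a fold of 1.09, was higher than that of 57.2% of all clusters. The best known cholesterol exporter of the group was thus the member with the smallest separation of the ages, 3.16 below Abca4.

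**Figure D2:**
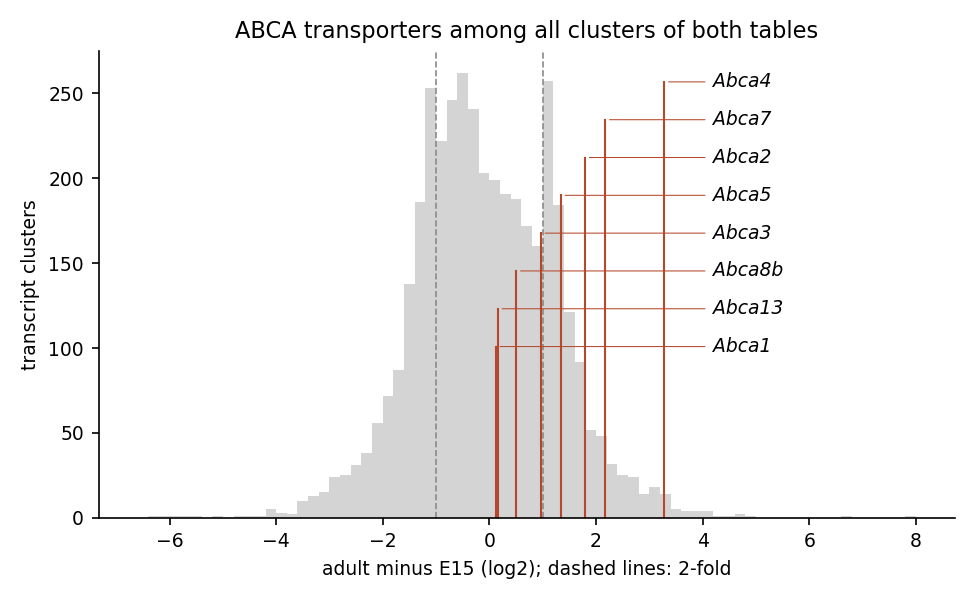
Histogram of adult minus E15 (log2, horizontal axis) over the 3956 clusters of both tables, with the count of clusters on the vertical axis and dashed lines at 2-fold. Red lines mark the 8 ABCA transporters, their heights serving only to separate the names, and all 8 stand to the right of 0.

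Only the 4 genes past 2-fold were in the gene-level table, which the authors limited to genes past a corrected p of 0.05 and a 2-fold change, and in which 48.8% of clusters were higher in adult. All 8 were in the table selected on the splicing index, a score for exons that depart from their whole gene. The merged values of a cluster were the same in both tables. The ABCA clusters are built from many exons. The number of probe sets considered for the splicing index was 59 for Abca4, 49 for Abca7 and Abca2, 38 for Abca3 and Abca8b. It was 36 for Abca5 and 35 for Abca13 and Abca1. The median of that table was 13, and 5.16% of its clusters had 35 probe sets or more. Both values of a cluster cancelled closely in these genes, their sum being at most 0.20 in size, for Abca2, against a median size of 0.08 over all clusters.

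The ontology fields of the tables give all 8 genes ATP binding, ATPase activity and a place in the membrane. They differ in the organelle. Golgi apparatus was given for Abca1, Abca5 and Abca7, endosome for Abca5 and Abca7, lysosome for Abca5, lysosomal membrane for Abca2, lamellar body for Abca3 and mitochondrial inner membrane for Abca8b.

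Members that are neighbours in the genome were not equally represented. In the gene order of RefSeq on the GRCm38.p6 assembly, Abca8b, Abca8a, Abca9, Abca6 and Abca5 lie side by side on chromosome 11. Only the genes at both ends of this array, Abca8b with a difference of 0.51 and Abca5 with 1.34, had an entry. Abca17, which adjoins Abca3 on chromosome 17, had none. The next protein-coding gene on the other side of Abca3, Rnps1, differed by -2.01, and Cnn2, which adjoins Abca7 on chromosome 10, by -2.28. Upp1, which adjoins Abca13 on chromosome 11, differed by 2.57. One gene further away, Clic3 (1.51) and Npdc1 (0.77) near Abca2, Abcd3 (0.02) near Abca4 and Ccnf (-0.57) near Abca3 had an entry.

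The sequence before the start of transcription is shown for the 4 genes that were at least 2-fold higher in adult and for Abca1, which differed least, so that genes of 1 subfamily with unlike differences can be read side by side. The sequences are the 250 bases upstream of the start from the RefSeq promoter windows of GRCm38.p6, in which all 8 members were found. They are read 5′ to 3′ on the strand of the gene, at chr3:122044210-122044459 on the + strand for Abca4, chr10:79996244-79996493 on the + strand for Abca7, chr2:25428349-25428598 on the + strand for Abca2, chr11:110337717-110337966 on the - strand for Abca5 and chr4:53159896-53160145 on the - strand for Abca1. Capitals mark the motifs that were searched on both strands. These were TAATCC, the core of OTX and CRX homeodomain sites, the E-box with the letters CACGTG, the nuclear receptor site with the letters AGGTCA, the CCAAT box, the TATA box with the letters TATAAA, and the GC box with the letters GGGCGG. No matches overlapped in these 5 genes.
Abca4: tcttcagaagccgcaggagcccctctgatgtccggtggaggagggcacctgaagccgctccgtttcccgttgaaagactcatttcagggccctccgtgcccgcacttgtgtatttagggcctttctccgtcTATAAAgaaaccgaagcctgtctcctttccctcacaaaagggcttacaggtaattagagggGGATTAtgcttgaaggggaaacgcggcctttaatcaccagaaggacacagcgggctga
Abca7: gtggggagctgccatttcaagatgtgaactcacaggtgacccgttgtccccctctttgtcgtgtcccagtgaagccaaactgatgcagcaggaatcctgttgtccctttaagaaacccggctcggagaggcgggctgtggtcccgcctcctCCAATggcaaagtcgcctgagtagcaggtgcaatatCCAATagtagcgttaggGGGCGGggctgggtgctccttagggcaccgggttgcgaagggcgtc
Abca2: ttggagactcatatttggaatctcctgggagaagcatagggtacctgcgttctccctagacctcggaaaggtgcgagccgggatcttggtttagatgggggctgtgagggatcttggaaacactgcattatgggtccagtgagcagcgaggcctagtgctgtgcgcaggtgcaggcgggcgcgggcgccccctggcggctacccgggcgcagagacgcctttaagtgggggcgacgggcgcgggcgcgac
Abca5: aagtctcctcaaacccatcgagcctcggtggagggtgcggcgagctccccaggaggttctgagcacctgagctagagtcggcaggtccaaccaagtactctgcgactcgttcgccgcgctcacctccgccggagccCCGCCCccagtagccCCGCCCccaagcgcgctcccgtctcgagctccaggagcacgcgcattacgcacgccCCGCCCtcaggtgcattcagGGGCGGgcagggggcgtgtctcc
Abca1: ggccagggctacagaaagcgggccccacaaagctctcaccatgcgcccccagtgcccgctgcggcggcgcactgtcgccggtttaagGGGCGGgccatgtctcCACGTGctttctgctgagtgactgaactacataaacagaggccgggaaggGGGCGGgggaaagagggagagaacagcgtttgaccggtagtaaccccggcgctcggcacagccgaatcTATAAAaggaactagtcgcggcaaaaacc

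The promoters of the subfamily did not share 1 motif. The GC box was found upstream of 5 of the 8 genes and in 32.7% of the 32851 RefSeq windows, with 4 copies for Abca5. CCAAT was found for Abca7 and Abca13, and in 33.8% of windows. The letters TAATCC were found upstream of 1 of the 8 genes, Abca4, as GGATTA 58 bases before the start, and in 6.25% of windows. CACGTG was found for Abca1 only, and in 6.02% of windows. AGGTCA was found for none of the 8 genes, and in 14.0% of windows. TATAAA stood 29 bases before the start of Abca1 and 119 bases before that of Abca4, and in 12.4% of windows. The G and C content was 69.2% for Abca5, 63.2% for Abca2, 61.6% for Abca1, 58.8% for Abca7 and 54.4% for Abca4, against a median of 52.4% over all windows. It was 67.6% for Abca3, and below that median for Abca13 (49.6%) and Abca8b (48.8%). The order of the genes by this share was not their order by difference. A match is only a run of letters, and no binding was measured here.

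The other ABC transporters, which carry drugs, peptides, sterols and conjugates among other substrates, were the nearest comparison. Of 36 symbols searched, 12 had an entry, with 4 at least 2-fold higher in adult, 4 at least 2-fold higher at E15 (22.9% and 24.4% of all clusters) and a median difference of -0.58. All 8 ABCA transporters lay above 0, as did 5 of these 12 and 45.9% of all clusters. The 4 ABCG transporters all lay below 0, from -3.82 for the sterol exporter Abcg5 to -0.28 for Abcg4. The 3 ABCC transporters had a median of -0.97, with Abcc1 at 1.19, Abcc3 at -0.97 and Abcc9 at -1.60. The ABCB transporters, with a median of 1.42 over 4 genes, included the peptide transporters Tap1, Tap2 and Abcb9 on the adult side and Abcb6 on the E15 side. Abcd3, a transporter of peroxisomes, lay at 0.02, near Abca1. In the gene-level table alone the other ABC transporters had a median of 1.19, so the lower median above comes from including the splicing index table. After both ages had been set to a median of 0 within each table, which favours the adult, the median of the 12 was -0.32 and the number at least 2-fold higher at E15 was 2. No test compares the subfamilies.

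**Figure D3:**
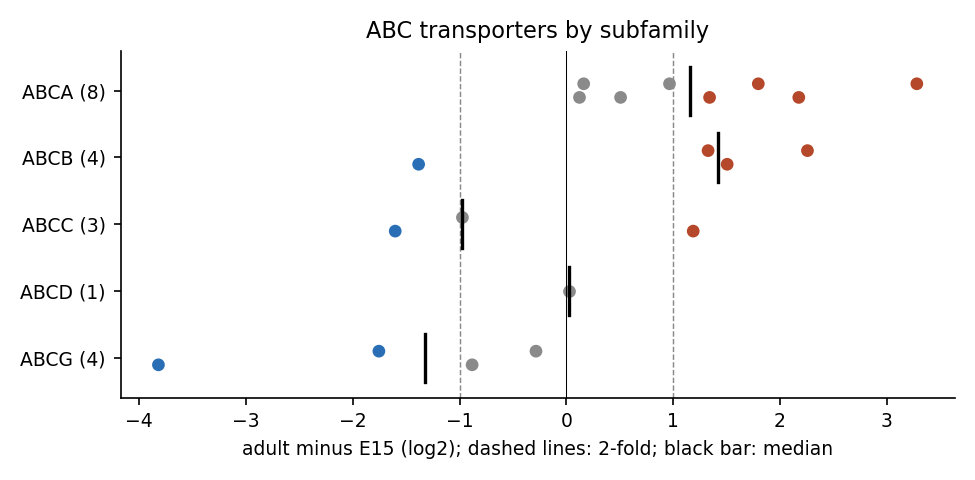
Adult minus E15 (log2, horizontal axis) for each ABC transporter with an entry, by subfamily, with the number of genes in brackets and TAP genes placed in ABCB. Red points are at least 2-fold higher in adult, blue points at least 2-fold higher at E15, grey points lie between, and the black bar is the median, 1.15 for ABCA and -1.32 for ABCG.

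The partners of these transporters were followed through lists of genes fixed for each process, older symbols included. ABCA1 and ABCA7 hand lipid to apolipoproteins, and lipoprotein receptors take the particles up. Of 20 symbols for apolipoproteins and lipoprotein remodelling 2 had an entry. A cluster shared by Apoc1 and Gcc1 had a difference of 2.01, and Mttp, the microsomal protein that loads lipid onto apolipoprotein B, had -1.27. Apoe, Apoa1 and Clu had no entry. Of 20 lipoprotein receptors 7 had an entry, 3 at least 2-fold higher in adult (22.9% of all clusters) and 1 at least 2-fold higher at E15 (24.4%). Lrp11 (1.67) and Lrp10 (1.02) were among those higher in adult, and Stab1, a scavenger receptor of macrophages and sinusoidal endothelium, had -1.84.

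Genes of sterol synthesis, storage and release from lysosomes were read against the shares of all clusters, 45.9% higher in adult and 22.9% at least 2-fold higher. Of 38 symbols 10 had an entry. All 10 had the higher value in adult and 6 were at least 2-fold higher, with a median of 1.11, or of 1.97 with the ages set to equal medians within each table. The synthesis enzymes Sc4mol, Lss, Ebp and Cyp51 were among the 6, with folds of 2.84, 2.37, 2.18 and 2.15. Soat1, which esterifies cholesterol for storage, and Npc2, which carries it within lysosomes, each had a difference of 1.14. Npc1, the membrane partner of Npc2, differed by 0.15, as little as Abca1. The sterol regulators had 4 entries of 16 symbols, all higher in adult, led by Ppargc1a (1.94) and Insig1 (1.38), with Ppara at 0.92 and Srebf1 at 0.50. The LXR receptor genes Nr1h2 and Nr1h3, which switch on Abca1 in many cells, had no entry.

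Genes of retinoid handling, some of them partners of Abca4 in the retina, lay on both sides. Of 37 symbols 11 had an entry, 5 at least 2-fold higher in adult (22.9% of all clusters) and 3 at least 2-fold higher at E15 (24.4%). Rdh5, a retinol dehydrogenase of the visual cycle, had a value of 1.66 in adult and of -1.62 at E15, a difference of 3.27. Rrh, the opsin peropsin, had a value of 1.72 in adult and of -1.54 at E15, a difference of 3.26. Both lay next to the 3.28 of Abca4. Adh1 (1.88), Rdh12 (1.10) and Lrat (1.10), which makes retinyl esters, were also on the adult side, and Stra6, a receptor for retinol-binding protein, differed by 0.81. In the other direction stood Crabp2, a carrier of retinoic acid, with a value of -1.62 in adult and of 1.48 at E15, a difference of -3.10. Crabp1 had -1.06, and the cluster that the receptor gene Rarb shares with other symbols had -1.23. Rpe65 had no entry. Of 21 markers of retinal pigment epithelium and photoreceptors 4 had an entry, with Rom1 at 1.61, Dct at 1.21, Sag at 0.54 and Rlbp1 at -0.70.

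Sphingolipid genes, and the flippases and scramblases, which move phospholipid by other means than ABC proteins, were read against the shares of all clusters. Of all clusters 22.9% were at least 2-fold higher in adult and 24.4% at E15. Among sphingolipid genes 11 of 44 symbols had an entry, 3 at least 2-fold higher in adult and 0 at least 2-fold higher at E15, with a median of 0.55, so that the share in adult was near that of all clusters. These were Sptlc3 (2.65), a subunit of the enzyme that starts sphingolipid synthesis, the phosphatase gene Sgpp2 (2.15) and the ceramidase gene Asah2 (1.19). Ugcg was on the E15 side with -0.49. Among flippases and scramblases 11 of 26 had an entry, 4 at least 2-fold higher in adult and 0 at E15, with a median of 0.66. The 4 were Plscr2 (2.07), Atp10d (1.32), Plscr4 (1.25) and Atp11a (1.24). For uptake of dying cells, a process in which Abca7 and Abca1 have been placed, 10 of 26 symbols had an entry. Of these, 4 were at least 2-fold higher in adult (22.9% of all clusters) and 0 at E15 (24.4%), and the median was 0.22. Gas6 (1.32) and its receptor Mertk (1.05) were at least 2-fold higher in adult, as were Elmo3 and Itgav, each with 1.00, while Elmo1 differed by -0.99 and Axl, another receptor of Gas6, by -0.74. Of 11 genes of lamellar bodies and surfactant 1 had an entry, Lpcat1, with -0.75.

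**Figure D4:**
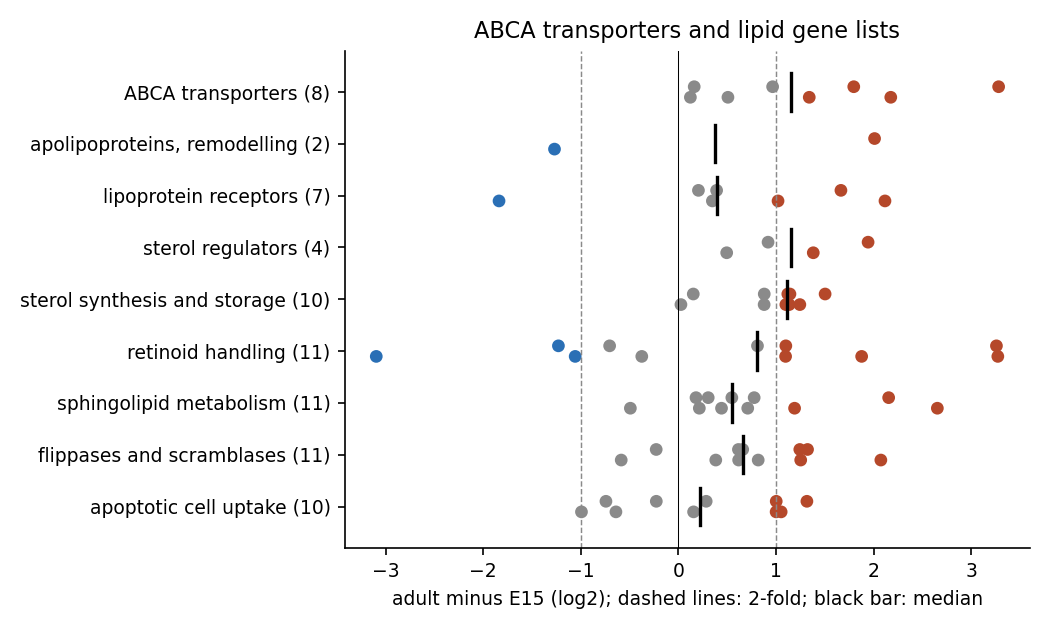
Adult minus E15 (log2, horizontal axis) for the ABCA transporters and 8 lists of genes for lipids, retinoids or uptake of dying cells. The number of genes that had an entry is in brackets. Red points are at least 2-fold higher in adult, blue points at least 2-fold higher at E15, and the black bar is the median, 1.15 for the ABCA transporters and 1.11 for sterol synthesis and storage.

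Markers of several cell types also differed between the pools. Of 18 oligodendrocyte symbols 5 had an entry, and 4 were at least 2-fold higher in adult (22.9% of all clusters), among them Mbp (2.09), Mal (1.12) and Mobp (1.05), while Cldn11, which other cells also use, was at least 2-fold higher at E15. Abca2, a gene those cells express strongly, differed by 1.80. Mog, Mag and Sox10 had no entry. Of 17 neuron symbols 8 had an entry, 6 of them at least 2-fold higher in adult (again 22.9% of all clusters), led by Camk2a (2.66) and Syt1 (1.97), while Nefm (-1.71) and Elavl4 (-0.90) lay on the E15 side. The part of such cells in the values of Abca2 and the other members was not tested. Since the values are centred for each cluster, no summed level of a marker list can be given for either age.

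Markers of blood, vessel and stroma lay on the E15 side. All 13 erythroid entries were higher at E15, with a median of -1.89, as were all 7 endothelial entries, with -1.10. The number at least 2-fold higher at E15 was 7 for the erythroid and 5 for the endothelial list (24.4% of all clusters). Of 16 entries for mesenchyme and fibroblasts 12 were at least 2-fold higher at E15, with a median of -1.32 and Fap (2.67) the 1 at least 2-fold higher in adult. Of 7 entries for ependyma and cilia 5 were at least 2-fold higher at E15, with a median of -1.03. With the ages set to equal medians within each table, the median was -1.03 for the erythroid list, -0.64 for endothelium, -0.82 for mesenchyme and fibroblasts and -0.17 for ependyma and cilia. All erythroid and endothelial entries were still higher at E15. The number at least 2-fold higher at E15 was 7 as before for the erythroid list, 7 of the 16 for mesenchyme and fibroblasts, and 1 of the 7 for both endothelium and ependyma. Over all clusters it went from 967 to 305, but to 767 with both tables re-centred together. Of 10 macrophage entries 4 were at least 2-fold higher in adult (22.9% of all clusters) and 2 at E15 (24.4%), with a median of -0.34. The 4 were genes of antigen presentation by MHC class II, among them Cd74 (3.16) and H2-Aa (2.53), and the other 6 markers lay on the E15 side, down to Mrc1 (-2.36). Of 21 symbols for the epithelium of the plexus 10 had an entry. Of these, 5 were at least 2-fold higher in adult (22.9% of all clusters), among them Prlr, Kl and Cldn2. Another 2, Rspo3 and Kcne2, were at least 2-fold higher at E15 (24.4%). With the ages set to equal medians within each table, the numbers were 6 in adult (26.1% of all clusters) and 1 at E15. Ttr, Folr1 and Aqp1, defining markers of that epithelium, had no entry, and centred values do not allow a check of the tissue label by level. The part of a change in the share of these cells in the ABCA differences was not tested.

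**Figure D5:**
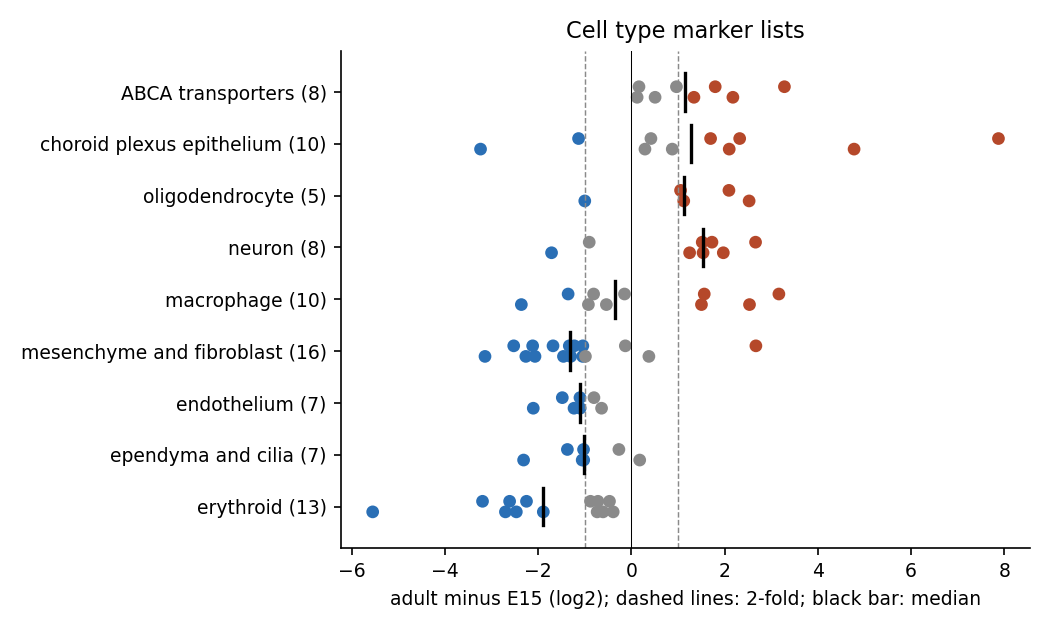
Adult minus E15 (log2, horizontal axis) for the ABCA transporters and 8 lists of cell type markers, with the number of genes that had an entry in brackets. Red points are at least 2-fold higher in adult, blue points at least 2-fold higher at E15, and the black bar is the median, which runs from -1.89 for the erythroid list to 1.53 for the neuron list.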

How the data were processed

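The tables were deposited by the authors and hold log2 values, 1 per age, with the 3 arrays of an age merged. For the gene-level table the authors ran RMA (Affymetrix Power Tools), kept genes expressed on all 3 arrays of a group, and selected on an unpaired comparison (Benjamini-Hochberg, 0.05) and a 2-fold change. The second table was selected from PLIER exon values by detection above background, an analysis of variance for splicing (Benjamini-Hochberg, 0.05) and a splicing index of at least 0.5 in size. The deposited number of probe sets considered for the splicing index was also used. Versions and genome build are not given in the sources used here. Columns with the authors' fold change, its direction and the splicing index were not used, nor was the third table, which held 0 clusters outside the other 2.

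Differences were computed as adult minus E15. A cluster naming a gene alone was preferred over one that it shared. At least 2-fold in size was taken as the call, without a test. Symbols were matched exactly, and the accession of all 8 members matched the same symbol in RefSeq. All 8 members, the other ABC transporters and up to 4 leading genes of each list were to be named, and others were named after their values were seen. Some genes of the lists are counted but not reported by name here. The members and lists were chosen with earlier results of these data known, and the motifs and ontology terms after the data were seen. Matching and re-centring were tested on simulated data. Python 3.11.15, pandas 2.3.3, numpy 2.4.6 and matplotlib 3.10.9 were used. Alternatives were re-centring, each table alone, clusters with 1 symbol, folds of 1.5 and 3, and the mean. The number of arrays limits the precision.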

Additional observations from a re-analysis of the deposited data

How the results depend on the processing

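The alternatives could not turn the direction of an ABCA transporter, since re-centring adds a positive constant and the values of a cluster are the same in both tables. Re-centring each age on the median of its own table adds 0.85 to differences of the gene-level table. To those found in the splicing index table alone it adds 0.16. The gene-level table holds no difference below 1.00 in size, since the authors selected it on a 2-fold change. Its medians thus rest on the genes that passed that selection. Whether any of the 0.85 comes from normalization was not tested. Re-centring within each table moved Abca4 to 4.14 and Abca1 to 0.29 and brought Abca3 past 2-fold, for 5 genes of 8 against 26.1% of all clusters. The share of adult among all clusters past 2-fold went from 48.3% to 77.2%, and to 57.0% when both tables were re-centred together, which adds 0.15 and gave the other ABC transporters a median of -0.43. That setting, and the re-centring of the gene lists, were chosen after seeing the data. With each table re-centred on its own, the number at least 2-fold higher at E15 fell from 3 to 1 for the retinoid list. It fell to 0 for lipoprotein receptors and oligodendrocyte markers, whose only such genes had been Stab1 and Cldn11. The number of ABCA transporters past the threshold was 5 at 1.5-fold and 3 at 3-fold. With the gene-level table alone the median of the ABCA transporters was 1.99, over 4 genes, and that of the other ABC transporters was 1.19, of opposite sign to the main value, since fewer genes enter. With clusters of 1 symbol the apolipoprotein list had 1 gene left and a median of -1.27. The models with values per array, among them the omission of each replicate, were not run, since 0 columns hold a single array. No paired analysis was possible because the columns carry no replicate number. Signal over background cannot be read from centred values.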

Other observations

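The organelle terms that some ABCA transporters carry were counted over all clusters, a choice made after the data were seen. Lysosome was given for 39 clusters, of which 20 (51.3%) were at least 2-fold higher in adult and 1 at E15, with a median difference of 1.02. Endosome was given for 42 clusters, 18 of them (42.9%) at least 2-fold higher in adult and 5 at E15. Golgi apparatus was given for 155, with 47 (30.3%) and 28. The share of all clusters at least 2-fold higher in adult was 22.9%, and the share at least 2-fold higher at E15 was 24.4%. Cholesterol metabolic process, carried by Abca1 and Abca2, was given for 11 clusters, 5 (45.5%) at least 2-fold higher in adult and 0 at E15. Visual perception, carried by Abca4, was given for 28 clusters, with 9 (32.1%) and 6. ATPase activity was given for 27 clusters, of which 9 (33.3%) were at least 2-fold higher in adult and 6 at E15. Of these 9, 4 were the ABCA transporters Abca4, Abca7, Abca2 and Abca5. ATP binding, carried by all 8 ABCA transporters, was given for 390 clusters, 85 of them (21.8%) at least 2-fold higher in adult and 104 at E15, with a median difference of -0.18.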
